A study of Mus musculus with 12 samples.

Results

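Cirbp and Rbm3 are the genes of the cold-inducible RNA-binding proteins, and each was measured by 1 probe set of the Affymetrix MOE430A array, so that 2 of the 22690 probe sets are described here. Both had a mean intensity over 20 in wild-type fed mice, as did 9370 probe sets in all. The genes were chosen by their symbols, after a rise of Cirbp in fasted PPARα-null mice had been seen in these same arrays. Every value that rests on PPARα-null arrays is therefore a description of these 2 genes, with no test, and the only test of them is that of fasting in wild-type mice. Probe set 1416332_at carried the single symbol Cirbp. Probe set 1422660_at carried both Rbm3 and the pseudogene Rbm3-ps, so that its signal cannot be assigned to Rbm3 alone.

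RNA of the full-length small intestine was taken from male mice aged 14 weeks, in 4 groups with 3 biological replicates and 3 arrays each. Wild-type mice were of strain 129S1/SvImJ, and the mice without the nuclear receptor PPARα, which fatty acids activate, were of strain 129S4/SvJae, so that the deletion and the substrain cannot be told apart. In either genotype, 1 group had free access to feed and 1 had been fasted for 24 h, starting at the onset of light. The sources used here do not say whether a replicate pooled several mice, at what hour the fed mice were killed or what the body temperature was. The diet is named differently by the series design (AIN93M) and by the methods (laboratory chow). A free-text label calls the wild-type fasted samples knockout, whereas their titles and strain fields call them wild type.

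CIRBP and RBM3 are small proteins with an RNA recognition motif at one end and a glycine-rich stretch at the other. They are best known because mild cooling raises them in mammalian cells, where they bind messenger RNAs, change their stability, splicing and translation, and enter stress granules under harsher stress. Heat lowers Cirbp, and in tissues its messenger RNA follows the daily rhythm of body temperature, through which CIRBP acts on the messenger RNA of the clock factor CLOCK. A short element in front of Cirbp, bound by the factor SP1, has been tied to its response to mild cold.

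RefSeq (GRCm38.p6) gave 2 windows before annotated start sites of Cirbp, on chromosome 10. The 250 bases upstream of the first, at chr10:80167589-80167838 on the plus strand, are shown because they hold that cold-responsive element, TCCCCGCC, which is set in capitals.
Cirbp: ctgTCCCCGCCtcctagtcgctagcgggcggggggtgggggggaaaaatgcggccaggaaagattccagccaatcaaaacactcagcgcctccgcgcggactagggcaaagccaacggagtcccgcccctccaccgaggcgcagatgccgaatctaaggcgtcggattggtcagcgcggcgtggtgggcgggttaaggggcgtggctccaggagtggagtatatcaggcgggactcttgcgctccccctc
The element began 247 bases before the start site and was found in 4.64% of 32851 windows of the same length, with both strands searched. The GC box GGGCGG, a binding motif of SP1, had 3 matches in this stretch, and 32.7% of all windows held at least 1. No match was found for the E-box CACGTG (6.02% of windows), for the heat shock element pair GAANNTTC (6.69%) or for the PPAR response element AGGTCANAGGTCA (0.0335%). The window of the other start site held 4 GC boxes and no match of the remaining 4 motifs. None of the motifs overlapped the capitals. A match of letters is a description of the sequence and not a site of binding.

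Fed and fasted arrays differed in their overall level. The median intensity was 12.65 to 12.81 on the fed arrays and 11.05 to 11.33 on the fasted arrays, and the probe sets with a mean over 20 had a median fasting change of −0.32 on the log2 scale. Because the arrays of the 2 feeding states may have been normalised apart, a difference in processing and fasting cannot be told apart in this shift. Log2 changes upon fasting are given relative to it unless called "as deposited", whereas intensities are always those deposited. It cancels out of comparisons of genotypes in 1 feeding state and of the difference between the fasting changes. The signal of Ppara was 19.9 to 58.7 on the wild-type arrays and 6.84 to 13.2 on the PPARα-null arrays, in accordance with titles and strain fields. Markers of absorptive cells were present on every array, with a summed intensity of 45315 to 56228 over 8 genes.

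Cirbp gave a low signal in fed mice of either genotype, a higher one in fasted wild-type mice and by far the highest in fasted PPARα-null mice. The intensities were 31.5, 40.6 and 25.9 on the 3 wild-type fed arrays (32.7 ± 7.39, SD, n = 3). They were 32.0, 36.3 and 24.7 on the PPARα-null fed arrays (31.0 ± 5.86). The fed groups overlapped, with a difference of −0.069 (SE 0.23) between the genotypes on the log2 scale. Fasted wild-type mice had 106, 53.7 and 95.0 (84.8 ± 27.5), and the second of these arrays lay well below the other two. Fasted PPARα-null mice had 491, 464 and 409 (455 ± 41.7). The lowest of them was 3.87 times the highest wild-type fasted array. In bulk tissue, a change in the share of the cells that hold a transcript and a change in its amount per cell cannot be told apart.

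**Figure D1:**
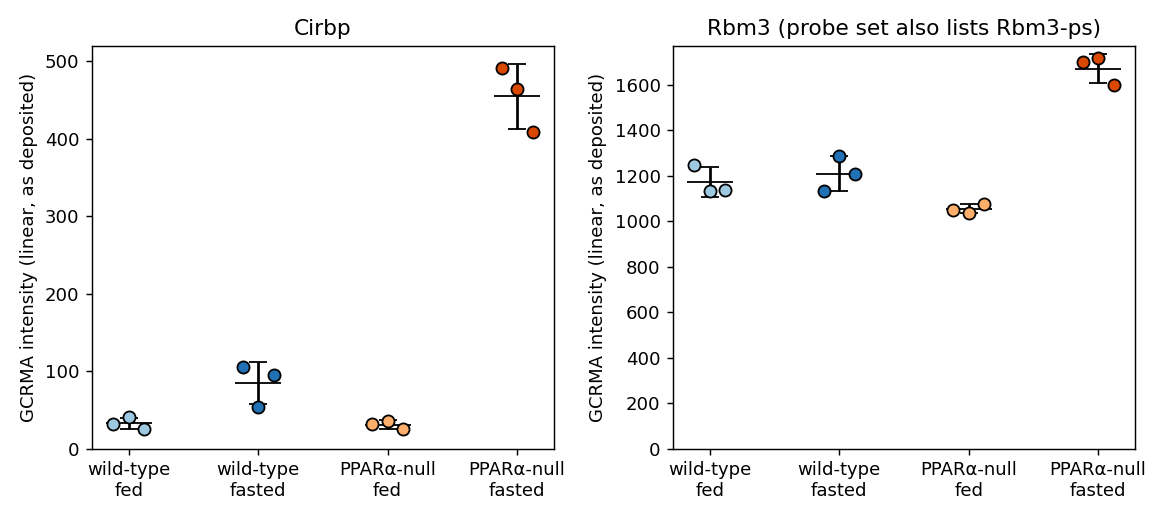
Intensity of the Cirbp and Rbm3 probe sets (linear GCRMA intensity as deposited, axes from 0) on each of the 12 arrays, by group, with the mean (wide line) and SD (bars) of 3 arrays. The PPARα-null fasted arrays lie apart from all others for both genes, at 409 to 491 for Cirbp and 1597 to 1717 for Rbm3, and only for Cirbp do the wild-type fasted arrays lie above both fed groups.

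In wild-type mice Cirbp rose upon fasting by 1.66 on the log2 scale (SE 0.23), which is 3.15-fold (limma, adjusted p = 0.000592). This was the 34th highest of 9370 changes, and the lowest fasted array was 1.32 times the highest fed array. As deposited, the rise was 1.34 or 2.53-fold. Of the 2 probe sets, 1 was thus called higher, where 10% of the 9370 probe sets tested were called higher and 7.43% lower, at a fold over 1.3 with an unadjusted p under 0.01. As deposited, these shares were 2.49% and 31.7%.

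In PPARα-null mice the fasting change of Cirbp, for which it was chosen, was 4.20 (SE 0.23), that is 18.4-fold, and 3.89 or 14.8-fold as deposited. It was the 17th highest of 9370 changes, in a comparison in which 18.6% of all probe sets were called higher and 23.6% lower (8.16% and 43.4% as deposited). The fasting change in PPARα-null mice exceeded that in wild-type mice by 2.55 (SE 0.33), the 16th highest of 9874 such differences. For this difference, 9.22% of the probe sets were called higher in PPARα-null mice and 14.6% lower, at an adjusted p under 0.05. Among the fasted mice, the PPARα-null level was 5.57-fold the wild-type level, or 2.48 on the log2 scale (SE 0.23). This was the 13th highest of 9217 genotype differences in the fasted state. The wild-type array with 53.7 weighed on these values, since without it the difference between the fasting changes was 2.25 and that between the fasted groups 2.18.

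Rbm3 changed less, from a strong signal. The intensities were 1248, 1132 and 1136 on the wild-type fed arrays (1172 ± 65.7) and 1133, 1285 and 1208 on the wild-type fasted arrays (1208 ± 75.9), and these groups overlapped. Relative to the common shift the wild-type change was 0.36 (SE 0.079), or 1.28-fold, with an adjusted p of 0.00702 by limma. It was not called, since the fold was under 1.3. As deposited, the change was 0.044 (SE 0.079). The direction of Rbm3 relative to other genes thus rests on the shift, and its intensity as such hardly moved in wild-type mice. The fold passed 1.3 when replicate 1 of the wild-type fed mice (log2 change 0.42) or of the wild-type fasted mice (0.41) was left out.

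On the PPARα-null fed arrays Rbm3 had 1050.4, 1036 and 1075 (1054 ± 19.7), all below the 3 wild-type fed arrays. Fasted PPARα-null mice had 1698, 1717 and 1597 (1671 ± 64.3), and the lowest of these was 1.24 times the highest wild-type fasted array. The fasting change was 0.98 (SE 0.079) or 1.97-fold, and 0.66 or 1.59-fold as deposited. It exceeded the wild-type change by 0.62 (SE 0.11), and the level in fasted PPARα-null mice was 1.38-fold that in fasted wild-type mice.

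The groups stood in a like order for both genes, with the PPARα-null fasted mice on top and the wild-type fasted mice next. At the lower end, the fed genotypes overlapped for Cirbp, whereas for Rbm3 the wild-type fasted and wild-type fed groups overlapped and the PPARα-null fed group lay lowest, below them by a narrow gap. Over the 12 arrays the log2 values of the 2 genes had a Pearson r of 0.95, and 134 of 9369 other probe sets had a higher r with Cirbp. Over the 6 fasted arrays r was 0.90 and over the 6 fed arrays −0.035. These points share the groups and the shift, and 5.77% of the probe sets had an r over 0.9 with Cirbp, so that the value is a description of the arrays.

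The genes whose log2 values followed Cirbp most closely over the 12 arrays, among 5820 genes, were Slc6a6 (r = 0.994), the taurine transporter, Guca2b (0.987), the peptide uroguanylin that controls intestinal salt and water, 2310039H08Rik (0.986), Gna13 (0.985), a G protein subunit, Arrdc4 (0.985), an arrestin-domain protein, and Mapk6 (0.984), an atypical MAP kinase. Gna13 went from 28.1 ± 1.03 to 65.5 ± 7.21 in wild-type and from 29.3 ± 3.05 to 329 ± 53.2 in PPARα-null mice. Mapk6 went from 21.1 ± 3.76 to 41.3 ± 14.4 and from 18.8 ± 1.35 to 182 ± 46.1. The likeness lay in the contrast of the groups. Within the 6 fed arrays, r with Cirbp ranged from −0.23 to 0.91 among these 6 genes, and of the leading 6 genes within the 6 fasted arrays, 1 (Mapk6) was among them.

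**Figure D2:**
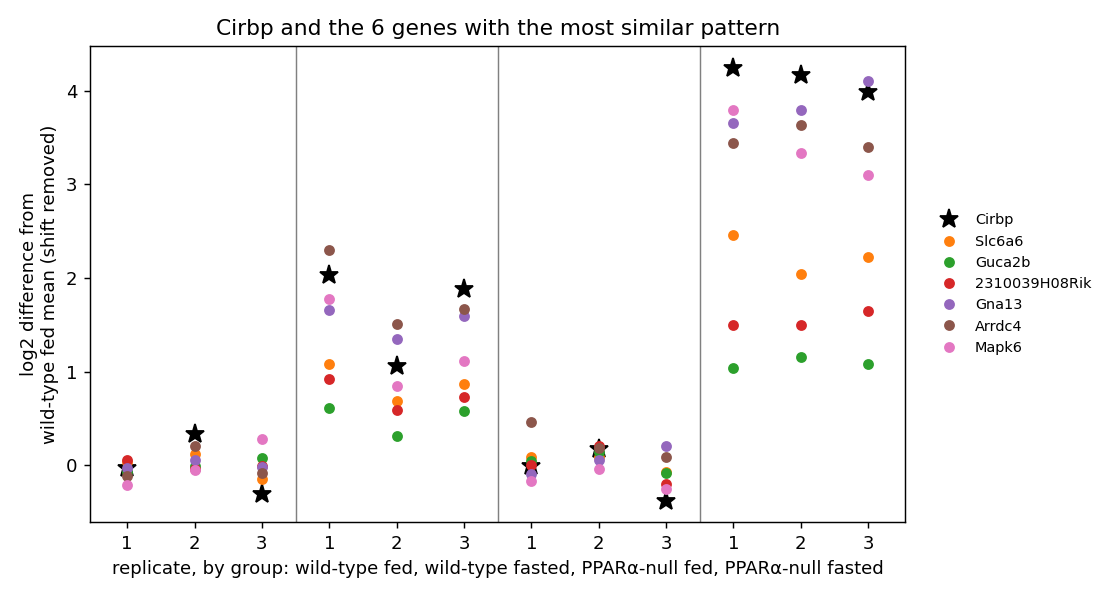
Log2 difference from the wild-type fed mean, with the common shift removed, of Cirbp (stars) and of the 6 genes with the highest Pearson r to it, on each of the 12 arrays (1 point per array and gene). All 7 genes lie near 0 on the fed arrays, rise in the wild-type fasted arrays, where replicate 2 is lowest for Cirbp (1.06), and are highest in the PPARα-null fasted arrays.

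The other genes of the pathway were given by 7 lists with 98 genes, of which 82 were on the array with a symbol of their own and 61 were tested upon fasting. In wild-type mice 9 of the 61 were called higher, 13 lower and 1 in both directions by different probe sets, beside 10% and 7.43% of all probe sets. In PPARα-null mice 17 were called higher, 24 lower and 3 in both directions, beside 18.6% and 23.6%. For the difference between the fasting changes, 9 of the 61 genes were called higher and 20 lower. Among all 9370 probe sets over 20 in wild-type fed mice, 8.21% were called higher and 14.9% lower for the difference. Genes that reached 20 only in another group were left out of this count, a limit set after their values were seen. A gene counts if any of its probe sets was called, so that genes with many probe sets had more chances than the single probe sets behind the shares over the whole array. As deposited, 3 listed genes were called higher and 30 lower in wild-type mice (2.49% and 31.7% of all probe sets), and 8 higher and 29 lower in PPARα-null mice (8.16% and 43.4%). Medians below are over 1 probe set per gene, beside 0.028 over all 5816 genes in wild-type mice, −0.045 in PPARα-null mice and −0.071 for the difference.

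**Figure D3:**
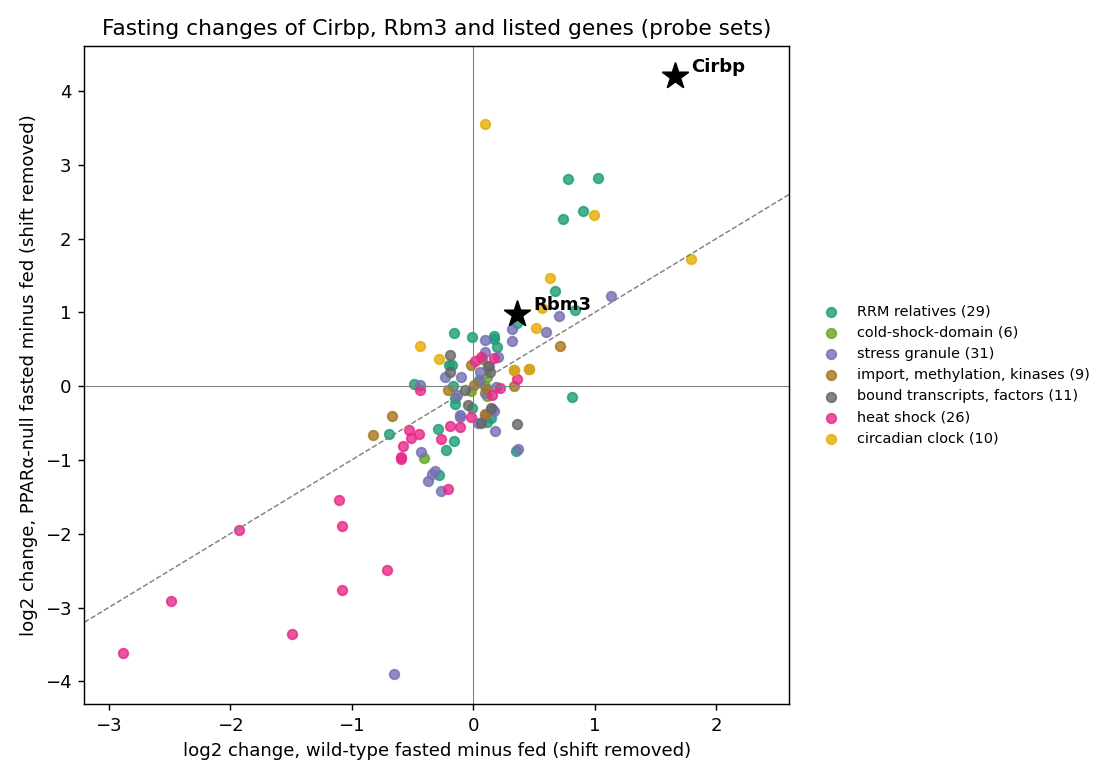
Fasting change of each tested probe set in wild-type mice (horizontal axis) and in PPARα-null mice (vertical axis), both in log2 with the common shift removed, for Cirbp and Rbm3 (stars) and the 7 lists (colours, number of probe sets in brackets). The dashed line marks equal changes. Cirbp lies at 1.66 and 4.20, far above the line, and most heat shock probe sets lie below 0 on both axes.

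Among the relatives with RNA recognition motifs, which act mostly in splicing and in the handling of messenger RNA, 3 of 11 tested genes were called higher and 1 lower in wild-type mice (10% and 7.43% of all probe sets), and 6 higher and 5 lower in PPARα-null mice (18.6% and 23.6%). Their medians were −0.0081 and 0.29, and 0.34 for the difference between the changes. Rbm39 is a splicing coactivator measured by several probe sets. Its probe set 1446147_at went from 220 ± 12.6 to 295 ± 8.5 in wild-type mice (log2 change 0.74, SE 0.093, adjusted p = 0.000296) and from 239 ± 21.1 to 922 ± 81.8 in PPARα-null mice (2.26, adjusted p = 4.58e-09). The difference was 1.52 (adjusted p = 1.29e-05). Other probe sets of Rbm39 rose by as much as 2.82 in PPARα-null mice, while 1438397_a_at had −0.16 in wild-type mice, which was not called, and rose by 0.72 in PPARα-null mice (0.41 as deposited, not called). The probe set with the strongest fed signal, 1426671_a_at, rose by 0.84 in wild-type and 1.03 in PPARα-null mice. Its difference of 0.19 was not called, so that the size of the genotype difference depended on the probe set.

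Hnrnpa1, a core protein of nuclear RNA packaging, rose at 1436549_a_at by 0.67 in wild-type and by 1.29 in PPARα-null mice (adjusted p = 0.00156 and 1.44e-06), the former not called as deposited (0.35). Its stronger probe set 1455305_x_at had 0.17 in wild-type mice, which was not called, and rose by 0.69 in PPARα-null mice (0.37 as deposited, not called). Rbm25, a splicing factor, rose at 1428908_at in PPARα-null mice by 0.86 and had 0.36 in wild-type mice, which was not called. Its probe sets 1428907_at and 1425523_at had −0.18 and −0.20 in wild-type mice and 0.29 each in PPARα-null mice, none of which was called. Hnrnpa2b1, a relative of Hnrnpa1, fell upon fasting in PPARα-null mice by 0.86 at 1420365_a_at, with −0.23 in wild-type mice, which was not called. It fell there by 0.48 at 1433830_at, and the other 2 probe sets, with −0.44 and −0.29, were not called. The fasted arrays of 1420365_a_at read 1166, 1162 and 1169.7 in wild-type and 820, 838 and 820 in PPARα-null mice. The probe sets of Rbm5, a splicing factor with several RNA-binding domains, differed. Probe set 1452187_at rose by 0.81 in wild-type mice (0.50 as deposited, not called), and 1452186_at fell by 0.88 in PPARα-null mice and had 0.35 in wild-type mice, which was not called. Rbm14, a coactivator, fell in PPARα-null mice by 1.21 at probe set 1436979_x_at, and in both genotypes, by 0.69 and 0.65, at 1456566_x_at, whereas 1437032_x_at had 0.049 and 0.083, not called. The relatives thus did not move one way.

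Of the cold-shock-domain proteins, a separate family that binds nucleic acids, 4 genes were tested and none was called in wild-type mice. By limma at an unadjusted p under 0.05, 1 of these genes, Carhsp1, had a lower probe set. In PPARα-null mice Carhsp1 was called lower at 1415976_a_at, from 83.5 ± 3.95 to 34.4 ± 5.76 (−0.98, adjusted p = 0.000204), whereas 1415975_at had −0.14, which was not called. That is 1 of 4 genes, beside 23.6% of all probe sets. Ybx1, the abundant Y-box protein, had a log2 change of −0.020 in wild-type and −0.061 in PPARα-null mice, and Ybx3 had 0.096 and 0.00029, all 4 of which were not called.

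Among RNA-binding proteins of stress granules, the cytoplasmic bodies that CIRBP also enters, 13 genes were tested. In wild-type mice 2 were called higher, 1 lower and 1 in both directions, beside 10% and 7.43% of all probe sets. In PPARα-null mice 4 were called higher, 3 lower and 3 in both directions, beside 18.6% and 23.6%. Fxr1, a relative of the fragile X protein, rose by 1.13 and 1.22. Tial1, which binds U-rich RNA, rose by 0.70 and 0.95 at 1455675_a_at, whereas 1421148_a_at had −0.24 and 0.13 and 1455676_x_at had 0.13 and 0.28, none of which was called. Tardbp, which binds RNA in the nucleus, had the largest difference of the listed genes in either direction other than Nr1d1. Its probe set 1423723_s_at read 575, 520 and 477 on the wild-type fed arrays, 256, 319 and 236 on the wild-type fasted arrays, 503, 595 and 527 on the PPARα-null fed arrays and 29.8, 27.6 and 29.7 on the PPARα-null fasted arrays. These groups were apart, save for the fed ones, and the changes were −0.65 and −3.90 (adjusted p = 0.00231 and 3.17e-10). The 1428467_at probe set of the same gene rose instead, by 0.59 (0.28 as deposited, not called) and 0.73. Its probe sets 1455655_a_at and 1434419_s_at changed less, with −1.42 and −1.28 in PPARα-null mice. In wild-type mice they had −0.27 and −0.37, which were not called. Elavl1, a stabiliser of messenger RNAs, fell in PPARα-null mice by 1.15 at 1448151_at, and G3bp1, a nucleator of the granules, by 1.20, while its relative G3bp2 rose there by 0.77 at 1415697_at and fell by 0.39 at 1423758_at. Pabpc1, the poly(A)-binding protein, had 0.19 and −0.018 and Fmr1 had 0.047 and 0.060, none of which was called. For the difference between the changes, 3 of the 13 genes were called higher and 5 lower, beside 8.21% and 14.9% of all probe sets.

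The proteins that import, methylate or phosphorylate CIRBP gave 5 tested genes. In wild-type mice 1 was called higher and 2 lower, beside 10% and 7.43% of all probe sets. In PPARα-null mice 1 was called higher and 1 lower, beside 18.6% and 23.6%. The kinase subunit Csnk2a2 rose in both genotypes at its weakest tested probe set, 1460646_at, by 0.71 and 0.55, the latter not called as deposited (0.23). Its other tested probe sets were not called, with −0.023 and 0.29 at 1453099_at and 0.0067 and 0.015 at 1429302_at. Srpk1, a kinase of splicing factors, fell in both genotypes, by 0.82 and 0.66. Csnk2a1 fell in wild-type mice by 0.67 at 1419038_a_at, with −0.41 in PPARα-null mice, which was not called. Its stronger probe sets 1419036_at and 1419037_at had 0.092 and 0.11 in wild-type and −0.37 and −0.033 in PPARα-null mice, not called. The importin Tnpo1 and the methyltransferase Prmt1 had changes of 0.34 and −0.21 in wild-type and 0.0065 and −0.054 in PPARα-null mice, which were not called. No gene of this list was called for the difference between the changes, beside 8.21% of all probe sets called higher and 14.9% lower. Limma gave an unadjusted p under 0.05 for this difference in 1 higher and 1 lower gene.

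Of the transcripts that CIRBP or RBM3 bind, with the factors that act on their genes, 7 were tested. Clock, whose messenger RNA CIRBP binds, was called higher in wild-type mice, by 0.46 (adjusted p = 0.0213), at 1418659_at, and had 0.23 in PPARα-null mice, which was not called. As deposited its mean intensity went from 40.1 to 44.4 in wild-type mice and was not called, nor was 1418660_at, with 0.33 and 0.21. Rpa2, a subunit of the protein that coats single-stranded DNA, rose in PPARα-null mice by 0.42, with −0.19 in wild-type mice, not called. As deposited the former was 0.11 and not called. Rtn3, a reticulon whose messenger RNA RBM3 binds, fell in PPARα-null mice by 0.50 at 1418101_a_at, with 0.062 in wild-type mice, not called, and 1425539_a_at had −0.29 and 0.14, not called. Txn1, thioredoxin, had −0.067 and −0.048, and Hif1a, the hypoxia factor, had 0.14 and 0.19 at its stronger probe set, and these were not called.

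Most heat-inducible chaperones, whose genes respond to temperature in the opposite sense to Cirbp, were called lower upon fasting, whereas no heat shock factor was tested. Of the listed heat shock factors, only Hsf2 had a probe set with its symbol alone, at 6.27 or less in every group mean. Of 14 tested genes of the list, 9 were called lower in wild-type and 13 in PPARα-null mice and none higher, against shares of 7.43% and 23.6% of all probe sets called lower. At an unadjusted p under 0.05 alone, limma gave a higher probe set for 1 gene of the list (Hspa8) in wild-type mice and for 3 (Dnajb1, Hspa4 and Hspb1) in PPARα-null mice. The medians were −0.24 and −0.71, and −0.40 for the difference between the changes, for which 9 of the 14 were called lower in PPARα-null mice, beside 14.9% of all probe sets. Leaving out replicate 2 of the PPARα-null fed mice, or replicate 2 of the fasted wild-type mice, lowered that count to 5. As deposited, 13 genes were called lower in each genotype, beside 31.7% and 43.4% of all probe sets.

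Hsph1, a large co-chaperone of HSP70, had 243, 266 and 438 on the wild-type fed arrays and 81.5, 113 and 71.5 on the wild-type fasted arrays. PPARα-null mice had 186, 345 and 360 when fed and 21.6, 23.5 and 22.05 when fasted. Fed and fasted arrays did not overlap in either genotype, and the changes were −1.49 (SE 0.26, adjusted p = 0.00194) and −3.36 (adjusted p = 5.72e-07), with a difference of −1.86 (SE 0.37, adjusted p = 0.00351). Chordc1, a partner of HSP90, fell from 253 ± 65.5 to 94.8 ± 15.7 and from 269 ± 58.8 to 33.4 ± 13.5, with changes of −1.08 and −2.76. Hspa1b, the stress-inducible HSP70, fell by 2.88 and 3.62 at 1427127_x_at, with fed arrays from 49.97 to 291 in wild-type mice, and is a near-identical copy of Hspa1a, so that its signal may be shared.

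Other chaperones fell less. Hsp90aa1, the inducible HSP90, fell at each of 3 probe sets, by 0.44 to 0.59 in wild-type and by 0.59 to 0.99 in PPARα-null mice. Dnajb1, the HSP40 partner of HSP70, fell by 1.39 in PPARα-null mice at 1416755_at, whereas 1416756_at had 0.34 there, and neither was called in wild-type mice. Hspd1 and Hspe1, chaperones of the mitochondrial matrix, fell in PPARα-null mice by 0.55 and by 0.96 (at 1422579_at, and by 0.42 at 1450668_s_at). Hspa8, the constitutive HSP70, fell at its weakest probe set (−1.08 and −1.90), and its 3 strong probe sets, with 0.16 to 0.36 in wild-type and −0.12 to 0.094 in PPARα-null mice, were not called. Hspb1 was the 1 tested gene of the list that was not called in PPARα-null mice, with 0.40 there and 0.064 in wild-type mice.

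**Figure D4:**
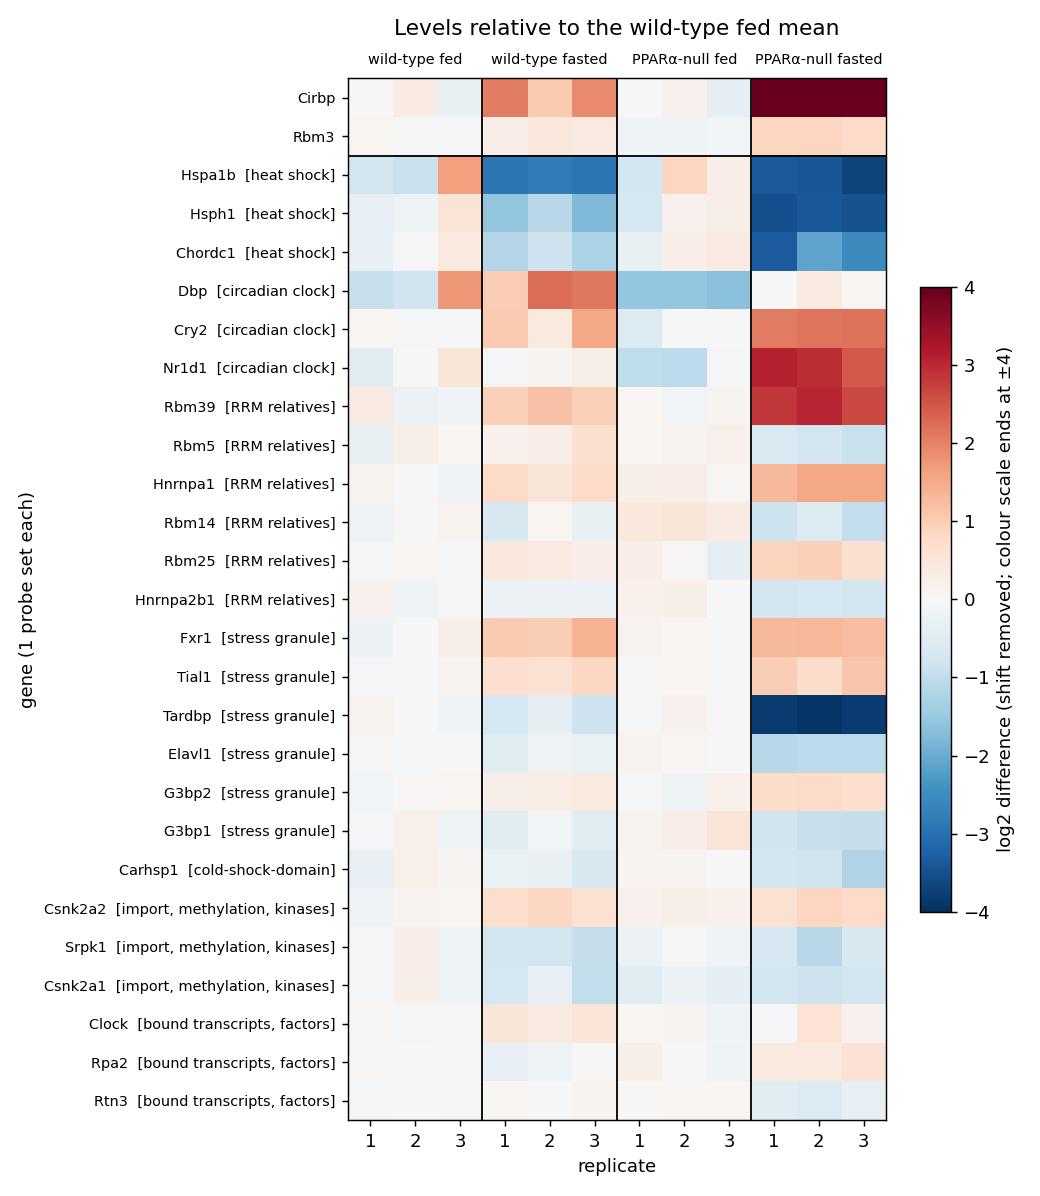
Log2 difference from the wild-type fed mean, with the common shift removed, of Cirbp, Rbm3 and 25 listed genes (rows, 1 probe set each, list in brackets) on each of the 12 arrays (columns, by group). Red is higher and blue is lower, and the scale ends at 4, which Cirbp passes on 2 of the PPARα-null fasted arrays. Listed genes were picked by the size of their called changes, each at its called probe set with the largest change in PPARα-null mice. Among these rows, Cirbp, Nr1d1 and Rbm39 are reddest, and Tardbp and the heat shock genes shown bluest, in the PPARα-null fasted arrays. In PPARα-null mice other probe sets, not shown, rose by 1.03 (Rbm39, 1426671_a_at) and 0.73 (Tardbp, 1428467_at).

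Clock genes, with whose rhythm Cirbp is known to move, were called higher or not at all. Of 8 tested genes, 3 were called higher in wild-type and 5 in PPARα-null mice, against 10% and 18.6% of all probe sets, and none lower. No tested probe set of these 8 genes fell at an unadjusted p under 0.05 by limma in either genotype. The medians were 0.49 and 0.93, and 2 of the 8 genes, Nr1d1 and Cry2, were called higher for the difference, beside 8.21% of all probe sets. As deposited, 1 and 3 of the 8 were called higher upon fasting, beside 2.49% and 8.16%. Since the hour at which fed mice were killed is not given, time of day and fasting cannot be told apart here. The sources used here do not give the hour by genotype either, so that time of day and genotype cannot be told apart.

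Nr1d1, the repressor REV-ERBα of the clock, had 49.99, 69.2 and 96.9 on the wild-type fed arrays and 54.1, 60.0 and 65.2 on the wild-type fasted arrays, which overlapped. PPARα-null mice had 34.6, 33.3 and 65.2 when fed and 474, 432 and 307 when fasted, which did not. The changes were 0.094 (adjusted p = 0.826) and 3.55 (SE 0.27, adjusted p = 4.60e-07), with a difference of 3.46 (SE 0.38, adjusted p = 6.99e-05). Cry2, a repressor of the core loop, went from 29.7 ± 1.68 to 49.9 ± 18.9 and from 26.6 ± 5.39 to 104 ± 2.90, with changes of 0.99 and 2.31 and a difference of 1.32 (adjusted p = 0.010).

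Dbp, an output factor of the clock, was called higher in both genotypes at 1418174_at, by 1.79 and 1.73 (SE 0.54 each), although wild-type fed replicate 3 with 123 stood far above 19.4 and 21.4 on the other two. As deposited, neither was called, and the stronger probe set 1438211_s_at, with 0.57 and 1.06, was called in neither genotype. Tef, its relative, rose in PPARα-null mice by 1.47, and Nr1d2, the relative of Nr1d1, by 0.79 (0.48 as deposited, not called). Per1, a repressor of the core loop, and Hlf, another relative of Dbp, were under 20 in wild-type fed mice, at 8.14 ± 1.32 and 9.17 ± 1.53. They passed 20 only in fasted PPARα-null mice, with 33.8 ± 5.0 and 26.3 ± 1.77, so that no test of them is given. Bhlhe40 and Arntl, other core factors, had −0.28 and −0.44 in wild-type and 0.37 and 0.54 in PPARα-null mice, none of which was called.

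Sums of the markers of other cells differed between the groups. These sums are of intensities as deposited and hold the common shift, whereas the calls are relative to it. Of the 4 genes of fat cells on the array, Fabp4 alone was over 20, and Adipoq, Lep and Retn, which define fat cells, were at 8.70 or less in every group mean. The sum of the list was 269 to 499 on the fed arrays, 599 to 779 in fasted wild-type and 1349 to 1626 in fasted PPARα-null mice, the order of Cirbp. The 8 genes of lymphocytes and macrophages summed to 810 to 1076 on the fed arrays. They summed to 560 to 606 in fasted wild-type and 303 to 367 in fasted PPARα-null mice, the reverse order. Of 6 tested genes, 2 were called lower in wild-type and 4 in PPARα-null mice, beside 7.43% and 23.6% of all probe sets. The 7 genes of cycling cells summed to 1969 to 2373 on the fed arrays and to 1111 to 1589 on the fasted arrays. Of these 7, 1 was called lower in wild-type and 5 in PPARα-null mice, beside the same shares of 7.43% and 23.6%. Smooth muscle genes summed to 5014 to 6385 when fed, 2284 to 3918 in fasted wild-type and 3649 to 3889 in fasted PPARα-null mice. Of 7 tested, 5 were called lower in wild-type mice and none in PPARα-null mice, beside 7.43% and 23.6% of all probe sets. Genes of Paneth and goblet cells summed to 33835 to 38777 when fed, 28867 to 33536 in fasted wild-type and 29238 to 29968 in fasted PPARα-null mice. Of 6 tested, 1 was called higher and 1 lower in wild-type mice, beside 10% and 7.43% of all probe sets. In PPARα-null mice none was called higher and 2 lower, beside 18.6% and 23.6%. The part of these cells in the levels of Cirbp was not tested. Of 3 erythroid genes on the array, none reached 20.

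Genes of the exocrine pancreas, which adjoins the gut, summed to 6063 to 7544 on the fed arrays and to 15346 to 28104 in fasted wild-type mice. Fasted PPARα-null mice had 30995, 5337 and 32757. Most of the fed sums was Reg1, with a mean of 5491 in wild-type and 5789 in PPARα-null fed mice. Upon fasting, Reg1 was called in neither genotype, with means of 5241 and 5189. On the array with 5337, Cirbp read 464 and Rbm3 1717. The ratio of 3′ to 5′ signal, a measure of RNA integrity, was 1.57 to 1.74 for actin on the fed arrays, 1.77 to 1.89 in fasted wild-type and 1.68 to 1.77 in fasted PPARα-null mice. For Gapdh it was 1.10 to 1.18 when fed and 1.18 to 1.26 when fasted.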

How the data were processed

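Total RNA of full-length small intestine was hybridised to Affymetrix MOE430A arrays (12 arrays, 3 in each of 4 groups). The authors deposited 1 table of linear GCRMA intensity values (GCRMA 2.20 per the submitters' notes), that is, values after background correction, normalisation and a summary per probe set. Fed and fasted arrays differ in level and in the decimals written (whether they were normalised together: not given in the sources used here). GCRMA compresses low signals, and 3 arrays per group limit the precision.

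Intensities were taken to log2. For contrasts of fasting, the median fasting change of both genotypes over expressed probe sets (−0.32) was added back to the fasted arrays. The 12 arrays were fitted together in limma 3.58.1 (lmFit, eBayes; R 4.3.3), each group having its own mean. Following the thresholds of the study's methods, calls needed a fold over 1.3 with an unadjusted p under 0.01, among the 9370 probe sets expressed, that is, whose wild-type fed mean was over 20. The difference between the fasting changes (PPARα-null minus wild-type) was called at an adjusted p under 0.05 among 9874 probe sets with a mean over 20 in any group. P-values were adjusted over these by Benjamini-Hochberg. Symbols come from the platform annotation, in which 20393 probe sets carried 1 symbol, 691 several and 1606 none. Listed genes were counted for the difference only at probe sets over 20 in wild-type fed mice. List genes were named only from probe sets with 1 symbol. The fit was tested on simulated data.

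The members and lists were chosen with earlier results of these data known. Named were, in each list, up to 3 called genes with the largest rise and up to 3 with the largest fall in each genotype, every gene called for the difference between the changes, and up to 2 of the most abundant genes not called. To these come the 6 genes with the highest r to Cirbp over 12 arrays, Ppara and the marker lists. Further genes (Tef, Nr1d2, Hsp90aa1) were named after their values were seen. Alternatives were the values as deposited, a shift per genotype, quantile normalisation, array centring, fits of the groups compared, trended and robust variances, array weights, log2(value + 8), other filters and call rules, 1 probe set per gene, the replicate number as a block, and each array left out.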

Additional observations from a re-analysis of the deposited data

Results flagged for a closer look

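The fasting change differed between the genotypes, by a test of the difference itself (limma, adjusted p under 0.05), for 29 listed genes measured over 20 when wild-type mice were fed. Of 61 tested listed genes, 9 were called higher and 20 lower, beside 8.21% and 14.9% of the 9370 probe sets over that level. A gene with many probe sets had more chances of a call than the single probe sets behind these shares. Each value is the change in PPARα-null mice minus that in wild-type mice on the log2 scale, at the probe set with the largest difference. Adjusted p-values ran from 1.78e-07 (Tardbp) to 0.0443 (Ewsr1).

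Among heat shock genes the difference was −1.86 for Hsph1, −1.79 for Hspa4, −1.67 for Chordc1, −1.18 for Dnajb1, −0.82 for Hspa8, −0.45 for Ahsa1, −0.45 for Fkbp4, −0.40 for Hspe1 and −0.36 for Hspd1. Among clock genes it was 3.46 for Nr1d1 and 1.32 for Cry2. The value of Hspa4 came from its weaker tested probe set, 1435194_at, with a wild-type fed mean of 63.4. The stronger probe set of Hspa4, 1416146_at, had a wild-type fed mean of 556. It had changes of 0.17 in wild-type and 0.38 in PPARα-null mice, with a difference of 0.21, none of which was called. The fall of Hspa4 thus depended on the probe set. The value of Hspa8 also came from its weakest tested probe set, 1431182_at, and the stronger ones had −0.28 to −0.25 for the difference, not called.

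Among relatives with RNA recognition motifs the difference was 2.02 for Rbm39, 0.67 for Hnrnpd, 0.62 for Hnrnpa1, −0.58 for Hnrnpab, −0.63 for Hnrnpa2b1, −0.92 for Rbm14 and −1.24 for Rbm5. Among stress granule genes it was −3.26 for Tardbp, −1.22 for Atxn2, −0.86 for G3bp1, −0.84 for Elavl1, −0.53 for Caprin1, 0.54 for Ddx3x, 0.46 for G3bp2 and 0.37 for Ewsr1. Among bound transcripts it was −0.88 for Cdkn1b, −0.56 for Rtn3 and 0.61 for Rpa2. Several of these values depended on the probe set. The value of Hnrnpab came from its weakest tested probe set, 1448144_at, and the stronger ones had −0.084 to 0.52, not called. Other tested probe sets had 0.034 and 0.038 for Rbm14 and 0.015 and −0.28 for G3bp2, not called. Elavl1, Rbm5 and Rtn3 were called lower at each tested probe set. Groups of 3 arrays are too small for a test of single outlying arrays.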

How the results depend on the processing

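The wild-type rise of Cirbp kept its direction and its call under every alternative run, and was 1.47 to 1.96 when each array was left out. Its other values were then 4.05 to 4.32 for PPARα-null fasting, 2.25 to 2.74 for the difference between the changes, −0.22 to 0.099 between fed and 2.18 to 2.67 between fasted genotypes. For Rbm3 they were 0.32 to 0.42 (called at 0.42 and 0.41, without replicate 1 of the wild-type fed or fasted group), 0.96 to 1.01, 0.57 to 0.67, −0.18 to −0.11 and 0.42 to 0.51.

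As deposited, PPARα-null fasting changes were 3.89 (Cirbp) and 0.66 (Rbm3), listed genes called in wild-type mice were 3 higher and 30 lower, and 8 were higher in PPARα-null mice. Probe sets called were then 233 higher and 2971 lower in wild-type and 765 and 4064 in PPARα-null mice, and the share of calls that were higher moved from 57.5% to 7.27% and from 44.2% to 15.8%. By construction this fit holds the shift. Quantile normalisation gave Rbm3 0.88 in PPARα-null mice, and log2(value + 8) gave Cirbp 3.86, since the added constant dampens changes of low values. With each array centred on its median, 5 heat shock genes were called lower for the difference, and 5 to 9 with each array left out. The shares over all probe sets in these fits are not given here. With no filter on level, 18 and 27 listed genes and 2430 and 4794 probe sets were called higher in wild-type and PPARα-null mice. With a level over 100, these were 1 and 7 genes and 390 and 788 probe sets, with 382 and 1200 lower, and 497 higher and 834 lower for the difference. With the 9874 probe sets that passed 20 in any group, 11 of 66 tested listed genes were higher and 20 lower for the difference, beside 9.22% and 14.6% of all probe sets. For the probe sets that did so in wild-type fed mice, a setting added after seeing the data, these were 9 and 20 of 61 genes, beside 8.21% and 14.9%. With 1 probe set per gene, 4 listed genes were higher and 8 lower in wild-type mice. The share over all genes under this rule is not given here, so that these counts have no background beside them. Of the 6 genes most like Cirbp, 1 was kept over the fasted arrays alone. For the settings given without a cause, the cause was not tested.

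With the replicate number as a block, calls went from 1636 to 1627 in wild-type mice, from 3955 to 3950 in PPARα-null mice and from 2354 to 2254 for the difference, and the values of Cirbp (1.66) and Rbm3 (0.36) were kept. Deviations of arrays with the same number had correlations of −0.111 to 0.218 between the fed and fasted groups of a genotype. Values for arrays with different numbers are not given here, so that whether the numbers pair the samples cannot be told. Another Cirbp probe set could not be tried, as the array holds 1. When an array was left out, the remaining 2 of its group were assumed to vary like the other groups. Low signals such as that of Cirbp in fed mice limit how large a fold can be measured.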

Other observations

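Within the groups, the array with the lowest Cirbp was also the array with the highest Hsph1 in 3 of 4 groups, a pattern chosen after its values were seen and not tested. These were replicate 3 of the wild-type fed mice (Cirbp 25.9, Hsph1 438), replicate 3 of the PPARα-null fed mice (24.7 and 360) and replicate 2 of the wild-type fasted mice (53.7 and 113). In the PPARα-null fasted mice the lowest Cirbp (409) and the highest Hsph1 (23.5) were on different arrays.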
